A study of Mus musculus with 6 samples.

Results

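The genes described here are 49 regulators of the cell division cycle: cyclins, cyclin-dependent kinases (CDKs), CDK inhibitors, retinoblastoma (pocket) proteins, E2F transcription factors and the enzymes and factors that act directly on them. They were listed by name and role and matched by gene symbol to the probe sets of the array. Of the 49, 45 were measured among 19505 named genes; Ccnd1, Ccnb1, Ccnf and Foxm1 were not analysed here. Each gene stands for 1 probe set, the one with the highest mean over all 6 arrays, and E2f3 alone had more than 1.

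The cells were RAW264.7, a mouse macrophage line of a leukaemia virus-induced tumour that divides in culture, grown for 3 days on polyetheretherketone (PEEK), an implant polymer. One group of 3 samples was grown on pristine PEEK, which served as the control, and the other group of 3 on modified PEEK; what the modification was is not described in the labels. Both groups were of the same line, in the same serum-containing medium, in wells seeded at the same density. Total RNA was profiled on Affymetrix arrays, from 250 ng per sample. A cell line in culture has no tissue around it, and its growth control is that of a transformed cell.

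Signals are on a log2 scale, so a difference of 1 is a 2-fold difference, and changes are given as modified minus pristine PEEK. They were tested with limma over all 19505 genes, and a gene was called higher or lower where its Benjamini-Hochberg adjusted p was under 0.05. All 6 arrays had medians between 4.98 and 5.10. A background of 3.72 was set at the 95th percentile of 1412 odour and pheromone receptor genes; 43 of the 45 regulators lay above it on both surfaces and 2 below it on both. Nothing in the labels tells whether the replicate cultures were independent experiments, so each p-value reflects the scatter of these arrays, part of which can be technical. Of 9 measured macrophage markers, 8 were above background on both surfaces and Mertk was below it on both. Fcgr1 (-0.85, adjusted p = 0.00166) and Itgam (-0.59, adjusted p = 0.00544) were called lower and Adgre1 (0.54, adjusted p = 0.00669) and Mertk (adjusted p = 0.0496) higher. The summed linear signal of the macrophage list ran from 15046 to 15331 on pristine and from 14709 to 14933 on modified PEEK, without overlap. Of 8 osteoclast markers, 3 were called lower on modified PEEK, Atp6v0d2 (-2.43), Acp5 (-1.41) and Dcstamp (-0.84). The other 5 did not pass: Oscar changed by -0.32, Ctsk by -0.29, Nfatc1 by 0.31 and Ocstamp by 0.33, and Calcr was below background on both surfaces. The summed linear signal of the 8 ran from 1584 to 1689 on pristine and from 806 to 969 on modified PEEK. The part of these marker differences in the results below was not tested. Summed signals of fibroblast markers (112 to 129 on pristine, 110 to 162 on modified PEEK), epithelial markers (61.4 to 79.3 and 60.7 to 93.4) and lymphocyte markers (67.2 to 82.5 and 63.4 to 72.6) overlapped between the surfaces.

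A cell commits to division when D-type cyclins, induced by growth factors, activate CDK4 and CDK6. These kinases, and then CDK2 with cyclins E and A, phosphorylate the pocket proteins, which frees E2F factors to switch on the genes of DNA replication. CDK1 with cyclins A and B then drives mitosis, under transcription factors that act with the MuvB complex. INK4 proteins inhibit CDK4 and CDK6, and CIP/KIP proteins bind a wider range of cyclin-CDK complexes. Macrophages in tissue mostly rest or divide slowly, in response to colony-stimulating factors, whereas this line divides continuously.

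Cyclin genes of S phase and mitosis (Ccne1, Ccne2, Ccna2 and Ccnb2), the mitotic kinase gene Cdk1 and the repressor genes E2f7 and E2f8 rose on modified PEEK, together with the inhibitor genes Cdkn2c, Cdkn2d and Cdkn1b. The G1 cyclin gene Ccnd2 and the inhibitor gene Cdkn1a fell. The calls of Ccne1, Cdkn1b and Cdkn1a did not hold in every alternative fit, as given below. Of the 45 regulators, 24 (53.3%) were called higher, where 5.24% of all genes were, and 2 (4.44%) were called lower, where 5.15% of all genes were. A call in either direction was made for 10.4% of all genes. The median change was 0.43 over the 45 regulators and 0.00880 over all genes. The changes ran from a fall of 2.26 in Ccnd2 to a rise of 1.46 in Cdkn2c. Arrays of the 2 surfaces did not overlap, with all 3 modified arrays above all 3 pristine ones, for 31 regulators (68.9%, beside 14.3% of all genes). They lay below for 3 regulators (6.67%, beside 14.5% of all genes). Without pristine PEEK replicate 1 or without pristine PEEK replicate 3 the number called higher was 18, and it was 20 to 22 without any of the other arrays; 2 were lower in each of these fits. The arrays measure RNA in bulk, so a larger share of cells in a phase of the cycle cannot be told apart from more RNA per cell.

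**Figure D1:**
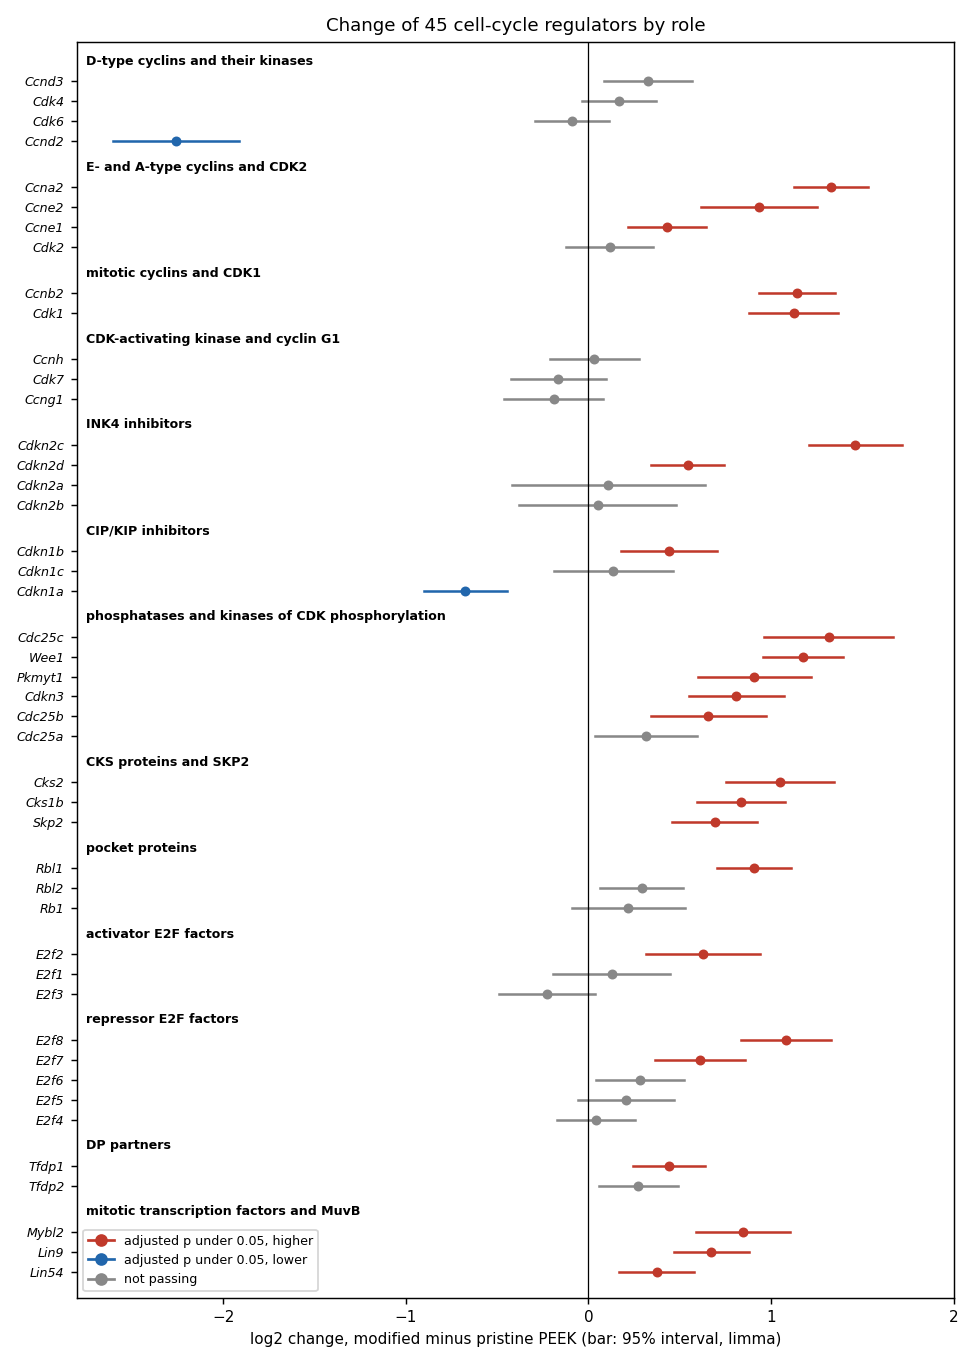
Log2 change of the 45 measured regulators (modified minus pristine PEEK; x axis), by role on the y axis, with dots for the change and bars for the 95% interval of limma; colours mark genes called higher (24, red), called lower (2, blue) or not passing (19, grey). Ccnd2 lies apart at -2.26, and the intervals of the D-cyclin kinases Cdk4 and Cdk6 span 0.

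Of the measured D-type cyclin genes, Ccnd2 fell and Ccnd3 did not pass. Ccnd2, encoding cyclin D2, had signals of 6.18, 6.55 and 6.36 on pristine PEEK and 3.94, 3.99 and 4.38 on modified PEEK. The surfaces lay far apart, and the modified arrays were close to the background of 3.72. The fall was 2.26 ± 0.15 (SE), which is 4.78-fold (adjusted p = 0.000176, lower on 3 of 3 arrays), and ranked 18 of 19505 genes by size of change. Ccnd3, encoding cyclin D3, read 8.60, 8.74 and 8.66 on pristine and 9.06, 9.09 and 8.84 on modified PEEK. All 3 modified arrays were above the pristine ones, by 0.33 on average, with an interval of 0.09 to 0.57, and the gene did not pass (adjusted p = 0.0971). It passed where the variance was fitted as a trend on signal (adjusted p = 0.00296).

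Their kinases showed small differences. Cdk4, encoding the main partner of D-type cyclins, had 10.58, 10.51 and 10.60 on pristine and 10.76, 10.75 and 10.69 on modified PEEK, a narrow gap between groups that did not overlap. Its change of 0.17 did not pass (95% interval -0.03 to 0.37, adjusted p = 0.316). Cdk4 passed where limma fitted the variance as a trend on signal, plain or robust (smallest adjusted p = 0.0119). Cdk6, encoding the second D-cyclin kinase, had 9.65, 9.65 and 9.59 on pristine and 9.53, 9.60 and 9.50 on modified PEEK, with overlapping groups, a change of -0.09 and an interval of -0.29 to 0.11 (adjusted p = 0.629). Both intervals lie within a 2-fold change in either direction.

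The 3 cyclin genes of the start and course of S phase rose, and their kinase gene did not pass. Ccne1, which with CDK2 opens S phase, had 7.40, 7.49 and 7.43 on pristine and 7.96, 7.87 and 7.79 on modified PEEK, without overlap, a rise of 0.43 (1.35-fold, adjusted p = 0.0218). Leaving out any pristine array, or replicate 1 or 2 of modified PEEK, ended that call, and the adjusted p then reached 0.0917. Ccne2, the related cyclin, had 5.65, 5.85 and 6.13 on pristine and 6.87, 6.66 and 6.89 on modified PEEK. It rose 1.91-fold (0.94 ± 0.14 SE, adjusted p = 0.00397). Ccna2, encoding cyclin A2 of S phase and early mitosis, had 8.34, 8.33 and 8.24 on pristine and 9.62, 9.61 and 9.67 on modified PEEK. The gap was wide beside the spread, a rise of 2.51-fold (1.33 ± 0.09 SE, adjusted p = 0.000176). Cdk2, the kinase that binds these cyclins, had 9.35, 9.56 and 9.44 on pristine and 9.68, 9.47 and 9.55 on modified PEEK, with overlapping groups and a change of 0.12 (interval -0.12 to 0.36, adjusted p = 0.589).

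Both measured genes of the mitotic kinase rose about 2-fold. Ccnb2, encoding cyclin B2, had 8.50, 8.58 and 8.61 on pristine and 9.74, 9.65 and 9.74 on modified PEEK, a 2.21-fold rise (adjusted p = 0.000271). Cdk1, its catalytic partner and the kinase that starts mitosis, had 7.01, 7.13 and 7.23 on pristine and 8.25, 8.13 and 8.36 on modified PEEK, a 2.18-fold rise (adjusted p = 0.000515). In both genes every modified array exceeded every pristine array by more than the range within a surface. The interval of Cdk1 was 0.88 to 1.37; differences between its change and those of Cdk2, Cdk4 and Cdk6 were not tested.

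**Figure D2:**
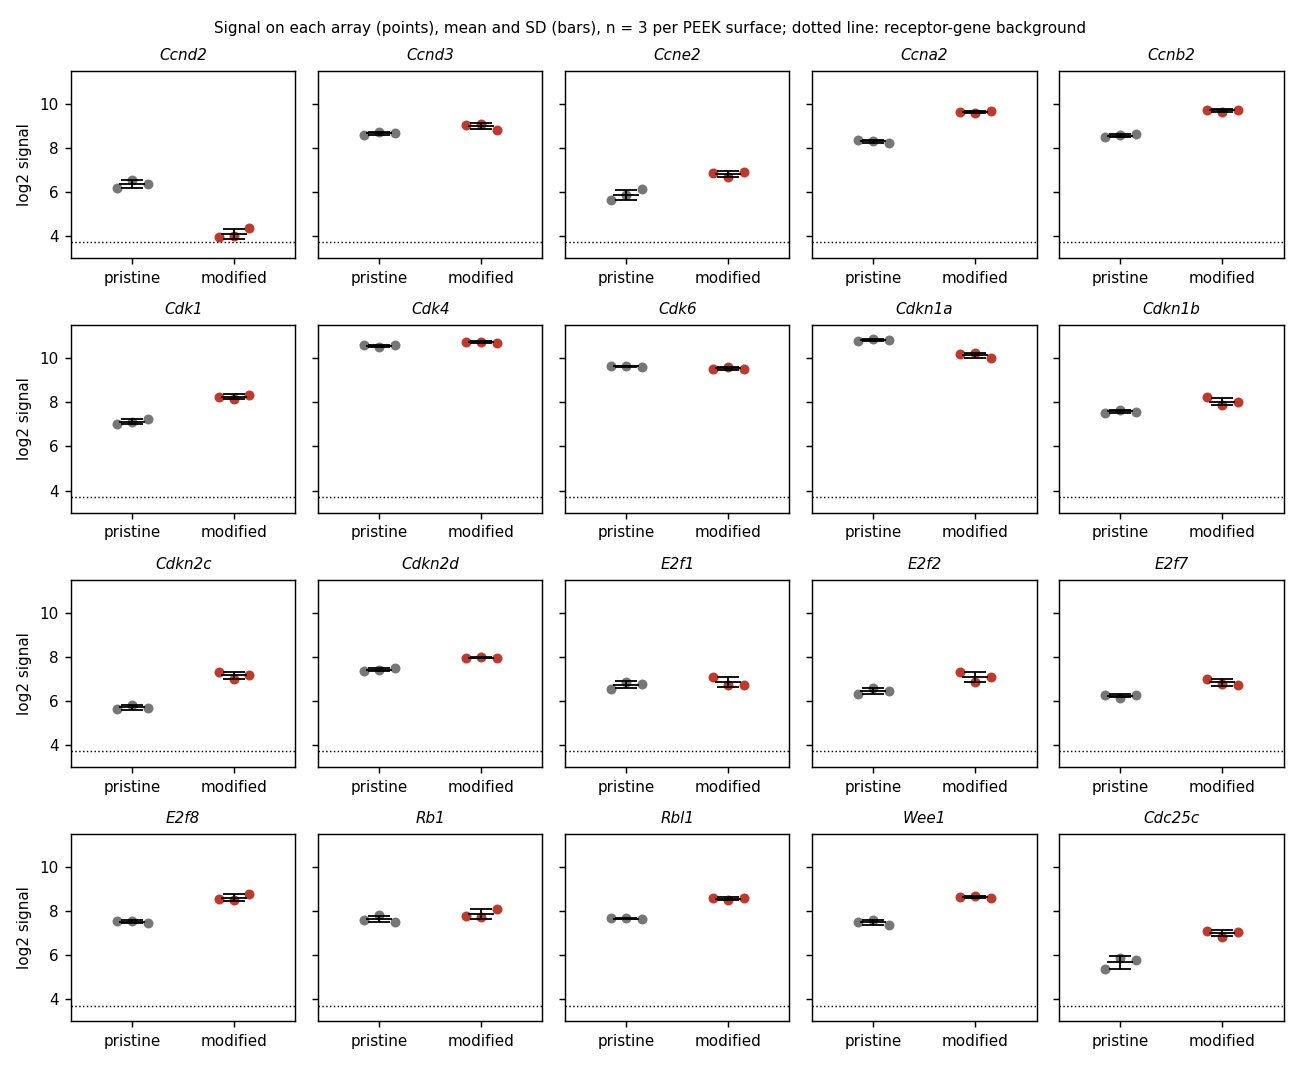
Log2 signal (y axis) of 20 regulators on each array, with 3 grey points for pristine PEEK and 3 red points for modified PEEK, bars for mean ± SD and a dotted line at the background of 3.72. Ccnd2 falls to near the dotted line on modified PEEK, and Ccna2, Ccnb2, Cdk1, Cdkn2c, E2f8, Rbl1, Wee1 and Cdc25c separate upward with no overlap.

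The CDK-activating kinase, which phosphorylates the activation loop of all cell-cycle CDKs, showed no call. Cdk7, its catalytic subunit, had 7.02, 7.05 and 7.01 on pristine and 6.95, 6.65 and 6.99 on modified PEEK, without overlap. Cdk7 changed by -0.16 (interval -0.42 to 0.09, adjusted p = 0.460), and the kinase's cyclin gene Ccnh by 0.03 (interval -0.21 to 0.27, adjusted p = 0.905). Ccng1, encoding cyclin G1, a p53-responsive cyclin, had 9.79, 9.84 and 9.91 on pristine and 9.47, 9.64 and 9.86 on modified PEEK. Its groups overlapped, with a change of -0.19 (interval -0.46 to 0.08, adjusted p = 0.412).

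Among the INK4 inhibitors, Cdkn2c and Cdkn2d rose, and Cdkn2a and Cdkn2b were at background. Cdkn2c, encoding the inhibitor p18INK4c, had 5.628, 5.809 and 5.664 on pristine and 7.290, 7.003 and 7.190 on modified PEEK. All modified arrays lay far above the pristine ones, and the rise of 1.46 ± 0.11 (SE; 2.75-fold, adjusted p = 0.000236) was the largest among the 45 regulators. Cdkn2d, encoding p19INK4d, had 7.36, 7.40 and 7.47 on pristine and 7.93, 7.97 and 7.96 on modified PEEK, a 1.46-fold rise with little spread on either surface (adjusted p = 0.00613). Cdkn2a, encoding p16INK4a and p19ARF, had 1.70, 1.98 and 2.53 on pristine and 1.84, 2.26 and 2.44 on modified PEEK, below the background of 3.72 on every array. Cdkn2b, encoding p15INK4b, had 3.12, 3.79 and 3.72 on pristine and 3.46, 3.52 and 3.80 on modified PEEK, with both surface means below the background. No fold is given for these 2 genes (adjusted p = 0.850 and 0.918).

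Of the CIP/KIP inhibitor genes, Cdkn1a fell, Cdkn1b rose and Cdkn1c did not pass. Cdkn1a, encoding p21, a p53 target that blocks cyclin-CDK complexes and binds PCNA, had 10.78, 10.87 and 10.82 on pristine and 10.21, 10.22 and 10.02 on modified PEEK. The groups were separate, with a fall of 0.67 ± 0.10 (SE; 1.59-fold, adjusted p = 0.00365). With arrays scaled to their poly-A spike-in probe sets, which moved the median change of all genes to 0.26, its fall was 0.43 and did not pass (adjusted p = 0.127). Cdkn1b, encoding p27, the inhibitor removed through SKP2, had 7.540, 7.673 and 7.572 on pristine and 8.231, 7.886 and 7.997 on modified PEEK. It rose by 0.44 (1.36-fold, adjusted p = 0.0455), close to the threshold. It did not pass in fits lacking any pristine array or replicate 1 or 3 of modified PEEK (largest adjusted p 0.148), nor with arrays centred on their medians (adjusted p = 0.0677) or an ordinary t statistic (adjusted p = 0.110). Cdkn1c, encoding p57, had 4.88, 4.99 and 4.73 on pristine and 4.74, 5.23 and 5.04 on modified PEEK, overlapping groups and a change of 0.14 (interval -0.19 to 0.46, adjusted p = 0.651).

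Skp2 and Cks1b, whose products direct the inhibitor p27 to destruction, rose, and so did Cks2. Skp2, the F-box protein that marks p27 for ubiquitination, had 8.07, 8.04 and 7.91 on pristine and 8.80, 8.70 and 8.59 on modified PEEK, a 1.61-fold rise (adjusted p = 0.00368). Cks1b, the CDK-binding cofactor that SKP2 needs for p27, had 8.05, 8.02 and 7.95 on pristine and 9.00, 8.72 and 8.79 on modified PEEK, a 1.78-fold rise (adjusted p = 0.00190). In both genes the groups were apart by several times their spread. Cks2, the second CKS protein, had 3.62, 3.69 and 3.87 on pristine and 4.95, 4.55 and 4.83 on modified PEEK, a rise of 1.05 ± 0.13 (SE; adjusted p = 0.00166). Its pristine mean of 3.73 lay next to the background of 3.72.

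Of the 3 pocket protein genes, Rbl1 was the one called. Rbl1, encoding p107, had 7.67, 7.67 and 7.65 on pristine and 8.61, 8.49 and 8.61 on modified PEEK. The pristine arrays were nearly identical, and the rise was 0.91 ± 0.09 (SE; 1.87-fold, adjusted p = 0.000598). Rbl2, encoding p130, the pocket protein of resting cells, had 7.21, 7.43 and 7.26 on pristine and 7.54, 7.57 and 7.65 on modified PEEK. Its groups did not overlap, but the change of 0.29 did not pass (interval 0.06 to 0.52, adjusted p = 0.118). Rb1, encoding the retinoblastoma protein, had 7.61, 7.81 and 7.53 on pristine and 7.76, 7.73 and 8.12 on modified PEEK, with overlap, a change of 0.22 and an interval of -0.09 to 0.53 (adjusted p = 0.408).

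Of the activator E2F genes, which bind DNA with a DP partner and switch on replication genes, 1 of 3 passed. E2f2 had 6.31, 6.59 and 6.46 on pristine and 7.31, 6.86 and 7.08 on modified PEEK, a 1.55-fold rise without overlap (adjusted p = 0.0221). That call ended in fits lacking replicate 1 or 3 of either surface (largest adjusted p 0.0845) and with an ordinary t statistic (adjusted p = 0.105). E2f1 had 6.55, 6.85 and 6.78 on pristine and 7.11, 6.74 and 6.71 on modified PEEK, which overlapped, with a change of 0.13 and an interval of -0.19 to 0.45 (adjusted p = 0.673). E2f3 had 6.64, 6.78 and 6.48 on pristine and 6.28, 6.48 and 6.46 on modified PEEK, a change of -0.23 with an interval of -0.49 to 0.04 (adjusted p = 0.295). Its other probe set changed by -0.26 and did not pass either (adjusted p = 0.222).

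The atypical repressors E2F7 and E2F8, which bind DNA without a DP partner and shut replication genes off late in S phase, both rose. E2f8 had 7.56, 7.55 and 7.48 on pristine and 8.56, 8.49 and 8.79 on modified PEEK, a 2.11-fold rise (1.08 ± 0.11 SE, adjusted p = 0.000615). E2f7 had 6.28, 6.15 and 6.25 on pristine and 7.01, 6.77 and 6.74 on modified PEEK, a 1.53-fold rise (adjusted p = 0.00906). Neither gene had overlapping groups, and the gap was wider in E2f8. The other repressor genes did not pass. E2f4, the pocket protein-bound factor of resting cells, changed by 0.04 (interval -0.17 to 0.26, adjusted p = 0.853). E2f5, which acts with the pocket proteins in the same way, changed by 0.20, without overlap (interval -0.06 to 0.47, adjusted p = 0.357). E2f6, which represses without pocket proteins, had 7.10, 6.97 and 7.15 on pristine and 7.23, 7.38 and 7.46 on modified PEEK, separate groups with a narrow difference of 0.28 that did not pass (interval 0.04 to 0.52, adjusted p = 0.147). The DP partner gene Tfdp1 had 9.68, 9.65 and 9.73 on pristine and 10.12, 10.10 and 10.16 on modified PEEK, a 1.36-fold rise with tight replicates (adjusted p = 0.0148). Tfdp1 did not pass in fits lacking any pristine array or replicate 3 of modified PEEK (largest adjusted p 0.0716). Tfdp2, the second DP gene, changed by 0.27 and did not pass (interval 0.06 to 0.49, adjusted p = 0.123).

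Genes that set the inhibitory phosphorylation of CDK1 and CDK2 rose on both sides of the switch. The inhibitory kinase gene Wee1 had 7.51, 7.58 and 7.38 on pristine and 8.67, 8.71 and 8.61 on modified PEEK, a 2.26-fold rise (adjusted p = 0.000309). Pkmyt1, encoding the membrane-bound kinase of the same sites on CDK1, had 4.01, 4.51 and 4.29 on pristine and 5.19, 5.24 and 5.11 on modified PEEK, a 1.88-fold rise (adjusted p = 0.00399). Both kinase genes were higher on every modified array. The opposing phosphatase gene Cdc25c, which activates CDK1 at mitosis, had 5.36, 5.90 and 5.77 on pristine and 7.10, 6.84 and 7.04 on modified PEEK, a 2.49-fold rise (adjusted p = 0.00126). Cdc25b, the phosphatase that starts CDK1 activation, had 6.12, 6.42 and 6.14 on pristine and 7.12, 6.78 and 6.75 on modified PEEK, a 1.58-fold rise (adjusted p = 0.0195), which did not pass in fits lacking replicate 1 or 3 of pristine PEEK (largest adjusted p 0.0804) or with an ordinary t statistic (adjusted p = 0.101). Cdc25a, which acts on CDK2 at the start of S phase, had 6.18, 6.35 and 6.27 on pristine and 6.73, 6.36 and 6.67 on modified PEEK. Its lowest modified array was barely above its highest pristine array, and the change of 0.32 did not pass (interval 0.04 to 0.60, adjusted p = 0.166). Cdkn3, a phosphatase of the CDK activation loop, had 6.87, 7.18 and 7.09 on pristine and 7.94, 7.76 and 7.88 on modified PEEK, a 1.75-fold rise (adjusted p = 0.00297).

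The measured transcription factor genes of the mitotic programme rose. Mybl2, encoding B-Myb, which joins the MuvB complex in S phase, had 6.93, 6.76 and 6.75 on pristine and 7.83, 7.60 and 7.55 on modified PEEK, a 1.80-fold rise (adjusted p = 0.00230). Lin9, a core MuvB subunit, had 6.74, 6.80 and 6.88 on pristine and 7.52, 7.46 and 7.46 on modified PEEK, a 1.59-fold rise with tight replicates (adjusted p = 0.00241). Lin54, the MuvB subunit that binds DNA, had 7.693, 7.622 and 7.682 on pristine and 8.103, 7.995 and 8.019 on modified PEEK, a 1.30-fold rise (adjusted p = 0.0328). The groups were separate in each, but Lin54 missed the threshold in each of the 6 fits that lacked an array, where its adjusted p ran from 0.0540 to 0.131, and with arrays centred on their medians (adjusted p = 0.0658).

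Promoter sequence was then read for the regulators, since E2F factors and MuvB act through short DNA motifs. Sequences were taken from a RefSeq promoter table of mouse build GRCm38.p6, which held 35 of the 49 regulators, 33 of them measured. In the 250 bases before each start, on both strands, matches were sought to the E2F motif (TTTCCCGC, TTTGGCGC, TTTCGCGC or TTTGCCGC), to the CHR motif (TTTGAA), through which LIN54 holds MuvB, and to the CCAAT box (CCAAT), the motif of NF-Y. None of these letters contains another of the motifs, and a gene with several starts counted where any of them held a match. Ccne1, Cdkn2c and Mybl2 rose and held no match, and E2f3 did not pass and held matches to all 3 motifs. The sequences of 5 genes that rose, chosen for their matches, are shown. Cdk1 and Cks1b have CHR motifs beside CCAAT boxes, and Ccnb2 has repeated CCAAT boxes. E2f8 has a CHR motif near the start and Rbl1 an E2F motif near the start. Each sequence runs 5′ to 3′ on the gene's strand over the 170 bases before the start, with motif matches, in either orientation, in capitals.
Cdk1: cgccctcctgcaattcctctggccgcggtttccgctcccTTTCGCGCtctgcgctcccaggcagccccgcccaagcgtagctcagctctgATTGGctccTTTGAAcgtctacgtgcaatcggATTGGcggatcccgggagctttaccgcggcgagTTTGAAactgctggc
Cks1b: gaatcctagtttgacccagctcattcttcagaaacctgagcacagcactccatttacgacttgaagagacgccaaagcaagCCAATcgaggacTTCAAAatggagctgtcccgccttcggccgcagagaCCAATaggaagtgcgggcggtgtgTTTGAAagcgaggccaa
Ccnb2: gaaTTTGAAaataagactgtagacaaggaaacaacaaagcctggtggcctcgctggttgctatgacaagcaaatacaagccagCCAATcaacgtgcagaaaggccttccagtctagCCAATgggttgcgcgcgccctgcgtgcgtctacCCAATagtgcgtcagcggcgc
E2f8: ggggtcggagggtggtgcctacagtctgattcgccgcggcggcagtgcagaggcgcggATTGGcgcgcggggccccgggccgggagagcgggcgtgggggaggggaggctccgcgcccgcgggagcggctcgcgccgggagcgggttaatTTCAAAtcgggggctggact
Rbl1: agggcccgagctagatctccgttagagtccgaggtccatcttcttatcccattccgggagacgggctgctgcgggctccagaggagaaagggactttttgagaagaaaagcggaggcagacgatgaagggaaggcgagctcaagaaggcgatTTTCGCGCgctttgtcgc

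These stretches lie at chr10:69352913-69353082 (minus strand) for Cdk1, chr3:89418292-89418461 (minus strand) for Cks1b, chr9:70421555-70421724 (minus strand) for Ccnb2, chr7:48881597-48881766 (minus strand) for E2f8 and chr2:157204535-157204704 (minus strand) for Rbl1, all upstream of the annotated transcript. In Cdk1, an E2F match ended 124 bases before the start, and CHR matches began 71 and 15 bases before it. In Cks1b the CHR matches began 77 and 17 bases before the start, with CCAAT boxes beginning 89 and 41 bases before it and others further upstream. In Ccnb2 the CCAAT boxes began 87, 54 and 21 bases before the start, and the CHR match 167 bases before it. The CHR match of E2f8 began 20 bases and the E2F match of Rbl1 18 bases before the start.

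A CHR match together with a CCAAT box was found in 8 of the 18 genes called higher that had a promoter in the table (44.4%): Ccnb2, Cdk1, Cdkn3, Cks1b, E2f2, E2f8, Lin54 and Skp2. It was found in 1 of 14 that did not pass (7.14%), E2f3, and in 7.34% of 27025 genes with a promoter. A CHR match, with or without a CCAAT box, was found in the same 8 of the 18 (44.4%), in 3 of the 14 (21.4%; Cdkn2b, E2f3 and Rbl2) and in 18.3% of all genes. A CCAAT box, with or without a CHR match, was found in 13 of the 18 (72.2%), in 5 of the 14 (35.7%) and in 37.5% of all genes. An E2F match was present in 4 of the 18 (22.2%; Cdk1, E2f7, Rbl1 and Tfdp1) and in 4 of the 14 (28.6%; Cdc25a, Cdk2, Cdkn2a and E2f3), beside 2.16% of all genes. Of the genes called lower, Cdkn1a was in the table and held no match in either of its promoters. The matches are letters in a window, not measured binding, and the shares were not tested. A site with other letters, or outside the 250 bases before the start, was not counted. The lack of a match therefore does not show the lack of a site.

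**Figure D3:**
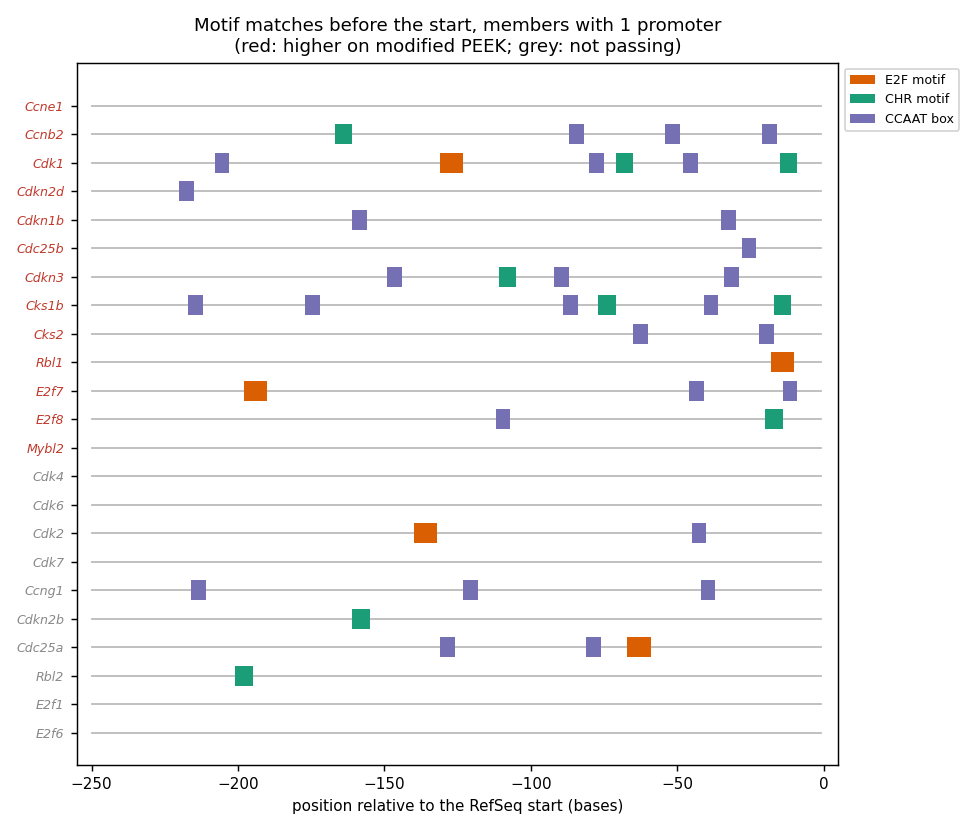
Positions of motif matches (bars; x axis, bases before the RefSeq start) in the 23 measured regulators with 1 promoter in the table, 13 called higher (red names) and 10 not passing (grey names). CHR motifs lie in the last 20 bases of Cdk1, Cks1b and E2f8, and the E2F motif of Rbl1 in the same stretch.

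Most measured genes listed as targets of these factors rose. Of 28 listed G1/S target genes of E2F, 25 were measured, of which 21 (84%) were called higher and 0 lower. Over all genes, 5.24% were called higher and 5.15% lower. The median change of these targets was 0.78. The largest changes were those of the helicase subunit genes Mcm6 (1.11) and Mcm5 (1.08) and the origin loading gene Cdc6 (1.09). Of 25 mitotic target genes of FoxM1 and B-Myb, 24 (96%) were called higher and 0 lower. Their median change was 1.20, and Plk4 did not pass (0.37, adjusted p = 0.161). Plk1 and Cdc20 are in this list and also among the cyclin degradation and CDK checkpoint genes below. The spindle genes Kif11 (1.48), Hmmr (1.48) and Kif20a (1.48) changed most. These target lists and the regulators were assembled with earlier results of these data known, so their direction is not independent support.

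Some genes around the core rose, and most did not pass. Of 26 measured genes of cyclin degradation and CDK checkpoints (of 28 listed), 8 (30.8%) were called higher, beside 5.24% of all genes. A call of lower was made for 1 (3.85%), beside 5.15% of all genes, and the median change was 0.20. Plk1, the mitotic kinase (1.30), Mastl, which blocks the phosphatase that opposes CDK1 (1.24), and Fbxo5, the inhibitor of the anaphase-promoting complex (1.17), rose most. Mdm2, the p53 ubiquitin ligase gene, averaged 10.27 ± 0.03 (SD) on pristine and 9.74 ± 0.01 (SD) on modified PEEK, over 3 arrays each. This fall passed (limma's adjusted p = 0.00555), but did not pass when scaled to the poly-A spikes (adjusted p = 0.249). The ubiquitin ligase subunits that work with SKP2 did not pass: Skp1 changed by 0.13 (adjusted p = 0.534), Cul1 by 0.05 (adjusted p = 0.868) and Rbx1 by 0.05 (adjusted p = 0.825). Of the other MuvB genes, Lin37 (0.01, adjusted p = 0.962), Lin52 (-0.09, adjusted p = 0.616) and Rbbp4 (0.21, adjusted p = 0.177) did not pass.

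Cyclins and CDKs outside the core, many of which act in transcription or signalling, were called at shares near those of all genes (5.24% higher and 5.15% lower). Of 13 other cyclin genes, 1 was called higher (7.69%) and 1 lower (7.69%), with a median change of 0.06. Ccng2, a cyclin linked to cell cycle arrest, averaged 8.06 ± 0.01 (SD) on pristine and 8.60 ± 0.06 (SD) on modified PEEK, a rise with an adjusted p of 0.00655. Ccny, a membrane-tethered cyclin, averaged 9.25 ± 0.06 (SD) and 8.69 ± 0.07 (SD), a fall with an adjusted p of 0.00679 that did not pass with spike scaling (adjusted p = 0.219). Of 12 measured other CDK genes (of 14 listed), 0 were higher and 1 (8.33%) lower by limma. That was Cdk18, which averaged 9.69 ± 0.05 (SD) on pristine and 8.85 ± 0.08 (SD) on modified PEEK, with an adjusted p of 0.000946. Changes of the 12 were negative in 10 and positive in 2. All modified arrays lay below all pristine ones for 4 (33.3%, beside 14.5% of all genes). The median change of the other CDK genes was -0.31, which became -0.07 when scaled to the poly-A spikes and -0.18 without modified PEEK replicate 2. Without modified PEEK replicate 3, 3 of these CDK genes were lower, and 4 were with an intensity trend or without the dimmer 50% of genes. Over all genes, 627 and 1719 of 19505 were lower in the first 2 of these fits. In the last fit 1521 were lower, among only the brighter 50% of genes that it kept.

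**Figure D4:**
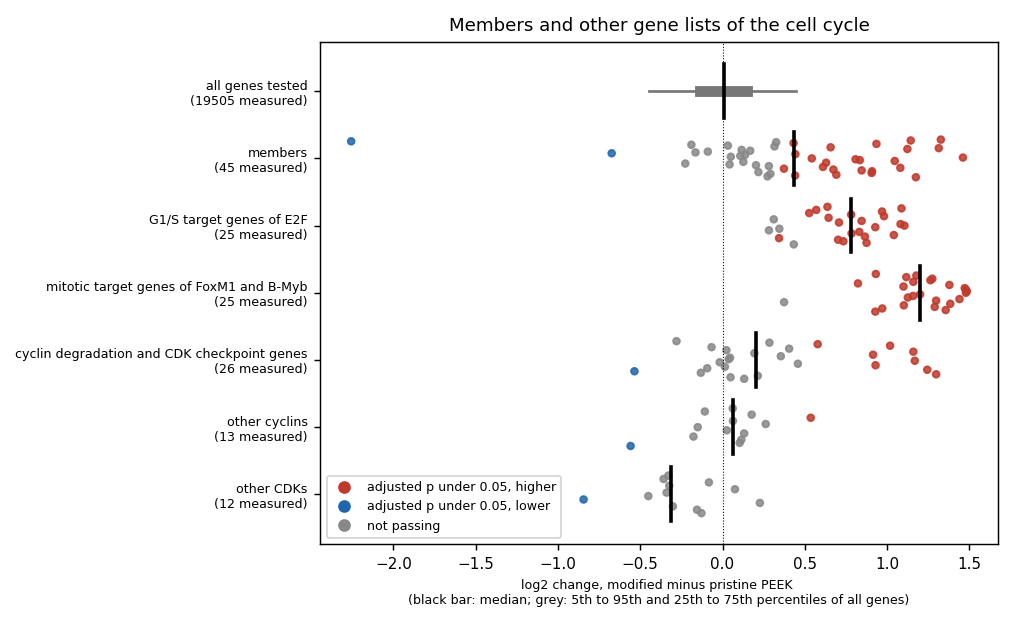
Log2 change (x axis, modified minus pristine PEEK) of the members of each gene list, with 1 dot per gene coloured by its call (red higher, blue lower, grey not passing), black bars for medians and grey bars for the spread of all 19505 genes. Medians are 0.43 for the regulators, 0.78 and 1.20 for the E2F and the FoxM1 and B-Myb targets, and 0.06 and -0.31 for the other cyclins and CDKs.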

How the data were processed

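RAW264.7 RNA from 3 pristine and 3 modified PEEK samples was measured. The log2 signals per probe set were deposited by the authors; RMA is named in the submitters' processing notes, with neither version nor role, and their range put them on a log2 scale. RMA's quantile step, where used, hides a change in total RNA per cell. Of 29129 features, 19572 probe sets named 1 gene, giving 19505 genes. No coordinates were taken from the arrays, whose genome build the labels do not name. There were 0 unused columns of per-sample values.

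Modified minus pristine PEEK was fitted for each gene in limma 3.58.1 under R 4.3.3 (lmFit and eBayes, no trend, two-sided, 4 residual and 4.09 prior degrees of freedom), on all genes, without covariates or a filter on dim probes. Intervals are limma's at 95%. The members, lists, motifs and tests were chosen with earlier results of these data known. The rule for named genes was every member, and up to 3 of each list's largest called changes in each direction; genes outside it (Plk4, Skp1, Cul1, Rbx1, Lin37, Lin52, Rbbp4) were chosen after their values were seen. The fit was first tested on simulated data. It recovered 23.9% of simulated log2 changes of 0.5, 71.9% of those of 1 and 97.3% of those of 2. Alternatives were other normalizations, filters and variance models, the mean of probe sets, a replicate block and leaving out each array.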

Additional observations from a re-analysis of the deposited data

How the results depend on the processing

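Of the 26 regulators called, 19 kept their direction and call under every one of the 18 alternatives that could be run for them, and 7 (Ccne1, Cdkn1a, Cdkn1b, Cdc25b, E2f2, Tfdp1 and Lin54) lost the call under at least 1; none changed direction while called. Of the 19 that did not pass, 13 passed under no alternative, and Ccnd3, Cdk4, Cdc25a, Rbl2, E2f6 and Tfdp2 passed under at least 1. Genes called higher over the whole array numbered 1575 when scaled to the poly-A spikes, 1586 with an intensity trend, 1580 with a robust trend and 594 to 903 with 1 array left out. Genes called lower numbered 290, 1719 and 1702 under the same settings, 1521 without the dimmer 50% of genes, and 548 to 1048 with 1 array left out. Regulators called higher numbered 18 to 22 and those called lower 2 with 1 array left out, and 1 was lower when scaled to the spikes. Mean poly-A spike signal was 6.96 ± 0.15 (SD) on pristine arrays and 6.71 ± 0.14 (SD) on modified ones. Mean hybridisation spike signal was also lower on modified arrays, at 9.14 ± 0.11 (SD) beside 9.31 ± 0.08 (SD) on pristine ones. Each difference had p = 0.2 by an exact two-sided permutation of the arrays, which cannot go below 0.1. The causes of these shifts were not tested, and leaving out an array also leaves fewer samples. With the replicate number as a block, 646 genes were called higher and 622 lower, and 18 regulators were higher and 2 lower; Ccne1, Cdkn1b, Cdc25b, E2f2, Tfdp1 and Lin54 lost their calls. Deviations of same-numbered arrays correlated at -0.17, -0.16 and 0.07 over genes, and 1 of 3 pristine arrays matched its own number best. With 3 arrays a surface, these values cannot decide whether same-numbered samples were paired, and the labels do not say. The 3 arrays a surface limit the precision, and Cks2, Ccnd2 and Pkmyt1 lay near the background on 1 surface, where folds are least certain.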
